A study of Arabidopsis thaliana with 12 samples.

Results

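The genes described here are chloroplast-encoded genes of photosynthesis, read on Affymetrix ATH1 arrays of whole Arabidopsis thaliana seedlings. A probe set was taken where it was assigned to a single gene of the chloroplast genome with the symbol of a photosystem (psa, psb), cytochrome b6f (pet), NDH (ndh) or ATP synthase (atp) subunit, or rbcL. The rule used no measured value, but it was chosen with earlier results of these data known. It gave 43 probe sets for 43 genes, of 22810 probe sets on the array and of 69 single-gene chloroplast probe sets. They are 5 genes of photosystem I, 15 of photosystem II, 6 of the cytochrome b6f complex, 10 of the NDH complex, 6 of the ATP synthase and rbcL. All 43 passed the filter on low values. ndhB was left out because its 1 probe set is assigned to both copies of the gene in the inverted repeat.

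Photosystem II, the cytochrome b6f complex and photosystem I pass electrons along the thylakoid membrane in light, the NDH complex returns electrons from ferredoxin to that chain, and the ATP synthase uses the resulting proton gradient. Rubisco, whose large subunit is rbcL, fixes carbon dioxide. The chloroplast genome holds only some of the subunits, mostly in clusters transcribed together by plastid RNA polymerases and then cut and trimmed, and the nucleus holds the rest. Chloroplast messages generally lack the stable poly(A) tails of nuclear messages, and how the labelling reaction was primed is not given in the sources used here.

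Seedlings of the Columbia ecotype carried 35S::HRE1 (HRE1ox), 35S::HRE2 (HRE2ox) or no transgene (WT). HRE1 and HRE2 are ethylene response factors, nuclear transcription factors of the low-oxygen response, and the constitutive 35S promoter drives each transgene throughout the plant. The number of independent transgenic lines is not given in the sources used here, and the levels of HRE1 and HRE2 themselves are not analysed here, because the annotation used names no probe set for either. At 7 days, after growth on 30 mM sucrose in 12 h of light a day, plants of each genotype were kept for 4 h in darkness at 23 °C under 1% oxygen (hypoxia) or 21% oxygen (air). This gave 6 groups of 2 biological replicates, each on 1 array: HRE1ox hypoxia, HRE1ox air, HRE2ox hypoxia, HRE2ox air, WT hypoxia and WT air. Darkness was shared by all 12 arrays, so no value here compares light with dark.

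Values are log2(intensity + 1). A difference is that of 2 group means on this scale, ± SE (2 arrays a group), and an adjusted p is from limma over the 13687 tested probe sets. A probe set with an adjusted p under 0.05 was called. The small number of arrays limits how precisely any of these values is known. Levels of different probe sets are not compared, because probes differ in brightness.

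Properties of the whole set of arrays bear on these genes. Per-array medians of the 43 genes lay between 10.99 and 11.57. The highest value of any probe set was 15.26 to 15.46, so atpB, at 14.69 to 14.92, read close to the top of the scale. One array, WT air replicate 2, is titled as wild type while its ecotype entry names 35S::HRE2. It was kept as WT by its title. For each comparison that uses it, the median of the 43 genes, the number above 0 or both are also given without it. Differences of single genes, values by complex or cluster, counts of arrays that did not overlap, counts of matched pairs and the relation to brightness are not given without it. Replicate 1 of the 4 WT and HRE1ox groups stood apart from the other 8 arrays in the 5' probe sets of the bacterial control transcripts: thr 5' read 7.17 to 7.48 on those 4 arrays and 3.63 to 4.15 on the other 8. Nuclear genes of photosynthesis, the markers of green tissue, were bright on every array: the summed intensity of the 11 measured was log2 16.79 to 17.05, with 0 values at 0.

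**Figure D1:**
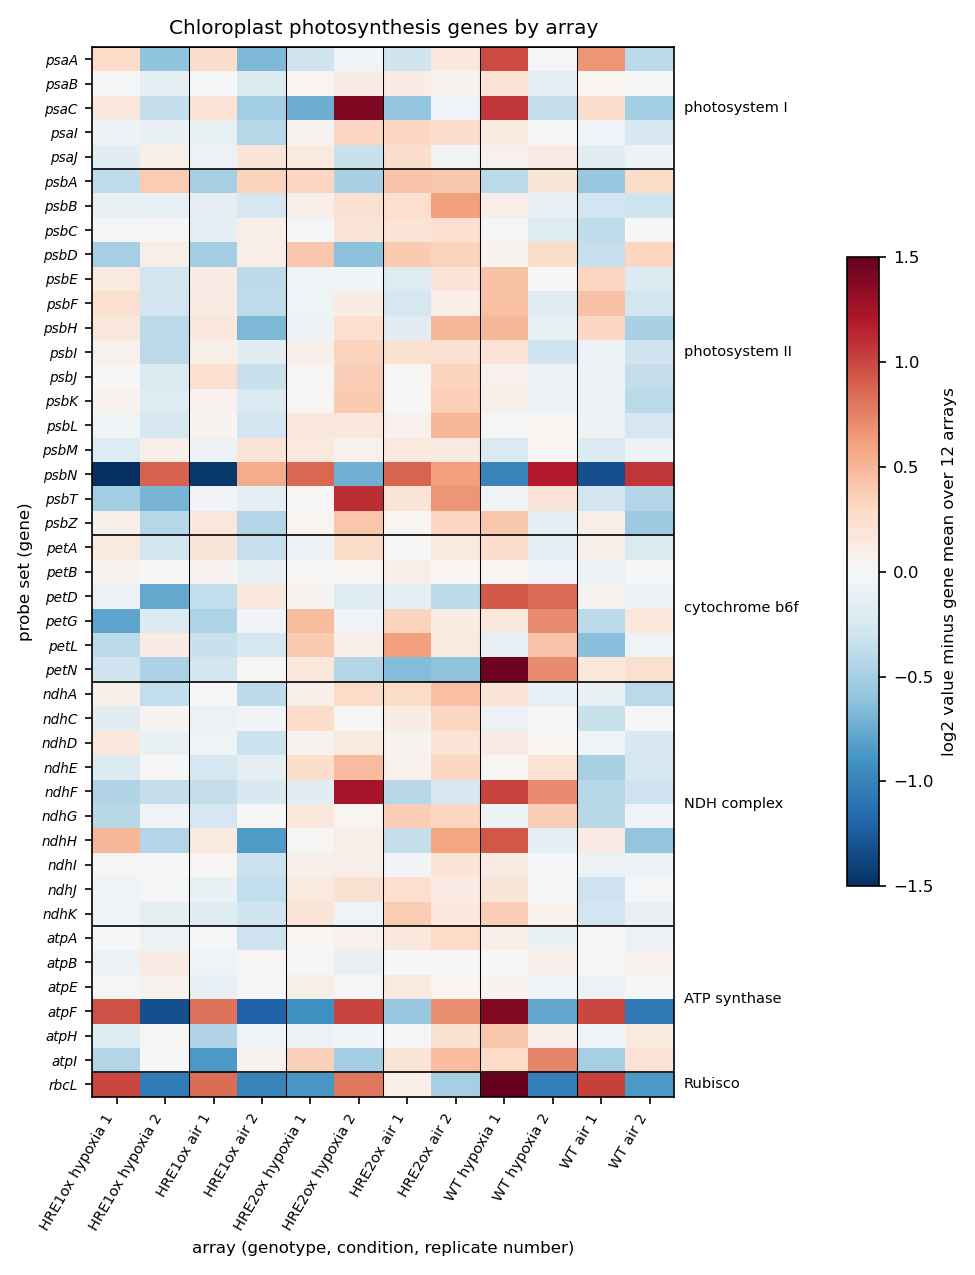
Each row is 1 of the 43 genes and each column 1 of the 12 arrays; colour is the log2 value minus the gene's mean over the 12 arrays, and the scale ends at 1.5 in either direction. The 2 WT hypoxia columns are red at petN, petD and ndhF, while atpF, rbcL and psbN alternate between replicate 1 and replicate 2 in the WT and HRE1ox columns.

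In WT seedlings, hypoxia against air asks how chloroplast messages respond to 4 h of low oxygen. No single gene passed the test: 0 of 43 were called, where 6.58% of all tested probe sets were. At an unadjusted p under 0.05 there were 5 (petD, ndhF, petN, ndhE and ndhK), or 11.6% of the 43 against a background of 17.1%. The direction was shared, however. All 43 differences lay above 0, with a median of 0.21, while 47.8% of all tested probe sets lay above 0 with a median of -0.01. Both hypoxia arrays read above both air arrays for 14 of the 43 (32.6%, against 18.2% of all tested probe sets), and both read below for 0 (against 21.6%). These counts describe 43 genes of 1 small genome in the same 4 arrays and carry no test of their own. Without the array with the conflicting label the median was 0.14, 35 differences lay above 0 and 0 genes were called. Without WT air replicate 1, WT hypoxia replicate 1 or WT hypoxia replicate 2 the numbers above 0 were 35, 30 and 39, with medians of 0.30, 0.14 and 0.33.

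The other 26 chloroplast genes, which code for ribosomal proteins, the plastid RNA polymerase and other functions, also all lay above 0, with a median of 0.19 and 1 call. Of 58 nuclear photosynthesis genes listed, the 11 with a probe set of their own had a median of 0.02, with 6 above 0. These 2 medians are not matched for brightness. The nuclear probe sets were brighter, with per-array medians of log2 13.22 to 13.47. Brighter chloroplast genes had smaller WT differences, with a median of 0.16 for the 28 with a mean of log2 10 or above. The 5 tested mitochondrion-encoded probe sets had a median of 0.58, with 4 above 0, on per-array medians of log2 3.67 to 5.29, near the filter level. The list of root markers held 8 names, with some genes entered under 2 names. Its 3 genes with a probe set of their own (EXPA7, EXPA18 and GH9C1) all fell. The summed intensity of these 3 was log2 4.42 to 4.56 on the WT hypoxia arrays against 6.44 to 7.13 on the WT air arrays. Their part in the chloroplast values was not tested. In RNA from whole seedlings, fewer cells of a type and less RNA in each cell cannot be told apart.

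**Figure D2:**
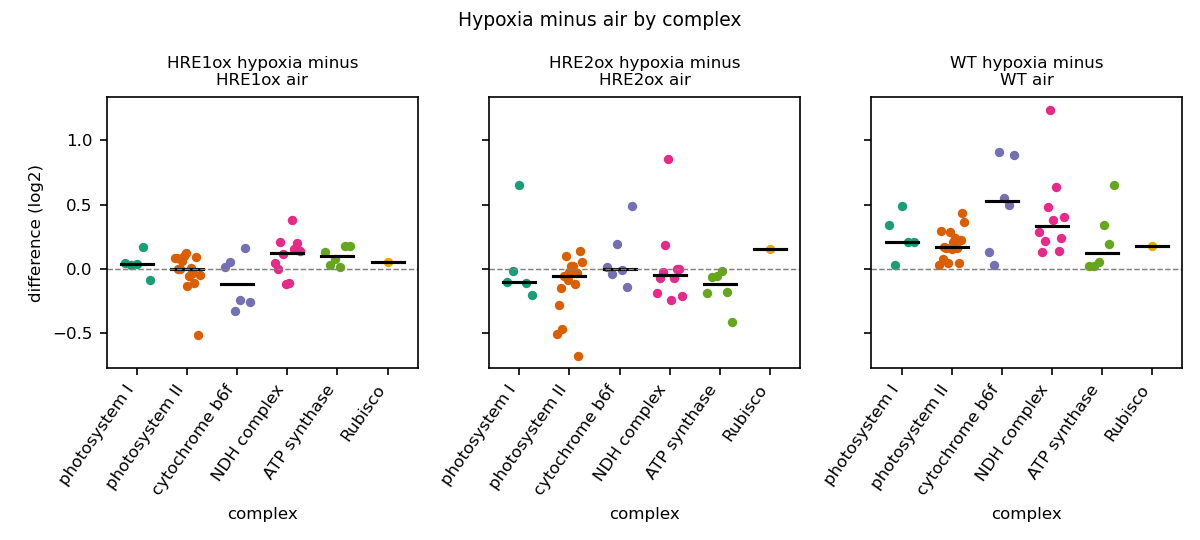
Points are the differences between hypoxia and air (log2, y axis) of the 43 genes, grouped by complex (x axis), in HRE1ox, HRE2ox and WT; black bars are medians. In WT every point is above 0, with the highest medians at cytochrome b6f (0.52) and the NDH complex (0.33); the HRE1ox and HRE2ox points scatter around 0.

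Genes of the cytochrome b6f complex had the highest median in WT, 0.52, with a range of 0.03 to 0.91 over 6 genes. petN, a very small membrane subunit that tobacco needs to assemble the complex, read 9.89 and 9.14 on the WT hypoxia arrays and 8.59 and 8.67 on the WT air arrays. The arrays did not overlap, the difference was 0.89 ± 0.26, and the adjusted p of 0.0870 missed the threshold. petD, which codes for subunit IV beside cytochrome b6, read 7.98 and 7.90 in WT hypoxia and 7.10 and 6.97 in WT air. Its arrays did not overlap either, and its difference of 0.91 ± 0.24 had an adjusted p of 0.0572. petG, another small subunit, read 8.22 and 8.77 in WT hypoxia and 7.67 and 8.21 in WT air, a difference of 0.55 ± 0.30 with the lowest hypoxia array only just above the highest air array. petL, the remaining small subunit, differed by 0.49 ± 0.27 with overlapping arrays.

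For 2 of the large subunits the differences were within their SE. petA, cytochrome f, differed by 0.13 ± 0.24. petB, cytochrome b6, read 13.94 and 13.85 in WT hypoxia and 13.82 and 13.90 in WT air, which is a difference of 0.03 ± 0.11 with overlapping arrays. petB and petD are cotranscribed at the end of the psbB cluster, and the difference between their values was not tested. petN was called when WT hypoxia replicate 2 was left out (1.26, adjusted p = 0.0264 from limma, range over 14 alternatives 0.0264 to 0.4099).

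Genes of the NDH complex had a WT median of 0.33, and 5 of the 10 (ndhD, ndhE, ndhF, ndhI and ndhK) had both hypoxia arrays above both air arrays. ndhF, a proton-pumping membrane subunit, read 5.55 and 5.25 in WT hypoxia and 4.11 and 4.23 in WT air, and the air values lay close to the filter level of log2 4. The difference was 1.24 ± 0.36, with an adjusted p of 0.0823. It depends on the pseudocount: with 16 in place of 1 it was 0.80, beside 0.86 for petN and 0.84 for petD. ndhE, a membrane subunit, read 11.19 and 11.39 in WT hypoxia against 10.68 and 10.93 in WT air, and differed by 0.48 ± 0.16 (adjusted p = 0.1302). ndhK, a subunit of the peripheral arm, differed by 0.41 ± 0.16 (adjusted p = 0.2075).

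ndhH, which lies in the same arm as ndhK, differed more but was not separated. It read 9.38 and 8.31 in WT hypoxia and 8.57 and 7.85 in WT air, a difference of 0.64 ± 0.50. The smallest NDH differences were 0.13 ± 0.16 for ndhC and 0.14 ± 0.15 for ndhI.

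Photosystem II genes had a WT median of 0.17 and a range of 0.03 to 0.44 over 15 genes, and 3 of them (psbB, psbL and psbT) had arrays that did not overlap. psbT, a small subunit, was the highest, with 9.78 and 10.03 in WT hypoxia and 9.54 and 9.40 in WT air (0.44 ± 0.31). psbB, a core antenna protein that binds chlorophyll, read 11.44 and 11.23 in WT hypoxia and 11.05 and 11.03 in WT air (0.30 ± 0.15, adjusted p = 0.3855). psbA, the reaction-centre protein that is replaced fastest in light, was the lowest: 13.16 and 13.75 in WT hypoxia against 13.00 and 13.85 in WT air, or 0.03 ± 0.42.

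Photosystem I had a WT median of 0.21. psaC, the iron-sulphur protein that hands electrons to ferredoxin, differed by 0.49 ± 0.68 with arrays that overlapped, and psaB, a reaction-centre protein, by 0.03 ± 0.14. The small subunits psaI and psaJ had arrays that did not overlap, at 0.21 ± 0.15 and 0.21 ± 0.19.

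ATP synthase genes had a WT median of 0.13. atpI, a membrane subunit of the proton channel, was alone among the 6 in having arrays that did not overlap: it read 7.89 and 8.32 in WT hypoxia and 7.10 and 7.81 in WT air (0.65 ± 0.39, adjusted p = 0.4864). atpA and atpB, which form the catalytic head, differed by 0.03 ± 0.14 and 0.02 ± 0.12. rbcL read 8.15 and 5.55 in WT hypoxia and 7.62 and 5.73 in WT air, so its difference of 0.18 ± 1.07 was far smaller than the spread between replicates.

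**Figure D3:**
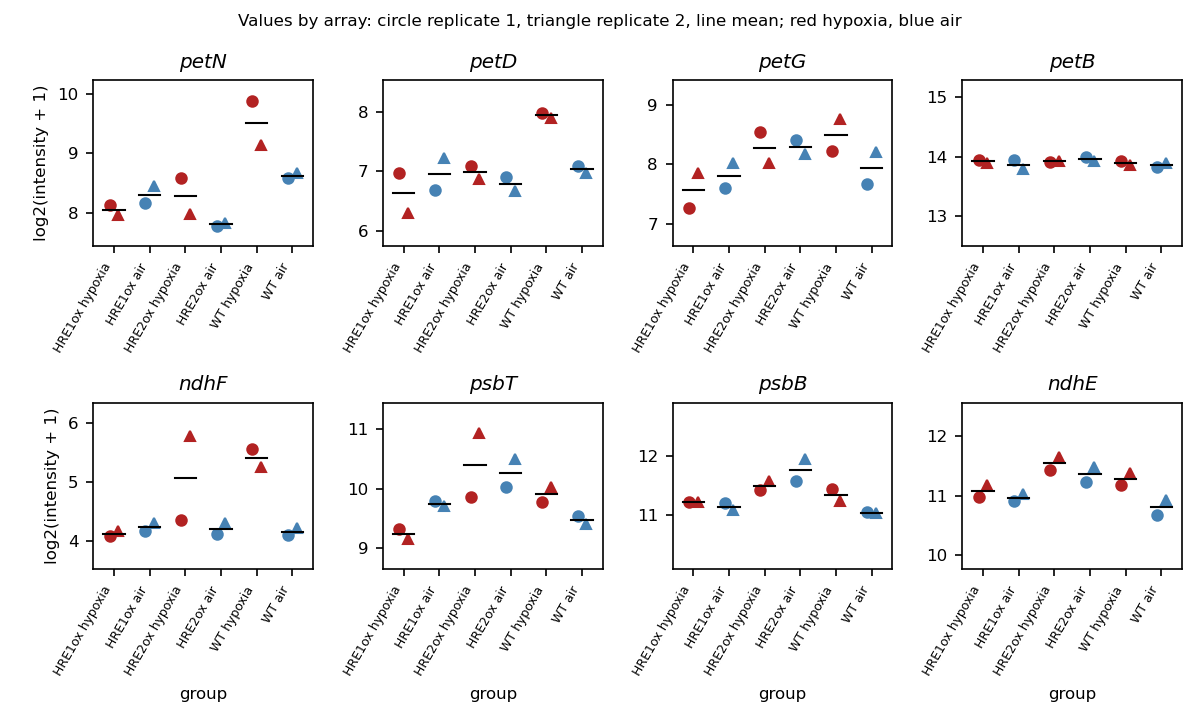
Log2 value (y axis) of 8 genes on each array, by group (x axis), with a circle for replicate 1, a triangle for replicate 2 and a line for the group mean; each panel spans the same log2 range. petN, petD and ndhF read higher on both WT hypoxia arrays than on both WT air arrays, while petB is flat across the 6 groups.

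Replicate number was also used to match arrays within WT and within HRE1ox, since equal numbers deviated together there. The replicate 1 minus replicate 2 difference correlated between the 4 groups at 0.89 to 0.97 over the 43 genes, as a description of genes that share arrays. In WT, 31 of 43 genes (72.1%) were higher in hypoxia in both matched pairs, against 33.3% of all tested probe sets. Lower in both were 0 of 43, against 5161 of the 13687 tested probe sets. By complex, the genes higher in both were 9 of 10 NDH genes, 5 of 6 cytochrome b6f genes, 4 of 5 photosystem I genes, 10 of 15 photosystem II genes, 3 of 6 ATP synthase genes and 0 for rbcL. The median difference was 0.31 in pair 1, which does not hold the array with the conflicting label, and 0.20 in pair 2, which does. petG gave 0.56 and 0.55 in the 2 pairs, and ndhF gave 1.45 and 1.03.

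A fit of the 8 WT and HRE1ox arrays with replicate number as a block called 9 of 43 genes in WT, all higher, against 0 without the block. They were ndhE, ndhF, ndhG and ndhH, petD, petG and petN, atpI and psbZ. That is 20.9% of the genes, where the same fit called 16.1% of all tested probe sets. In it ndhF had an adjusted p of 0.0009622, with a range of 0.0009622 to 0.3021 over 13 alternatives. These 9 calls rest on all 4 WT arrays, the one with the conflicting label included. A block that separates the 4 arrays with high control 5' signal from the other 8 called 5 (ndhE, ndhF, ndhG, petD and petN), or 11.6%, where it called 13.6% of all tested probe sets.

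**Figure D4:**
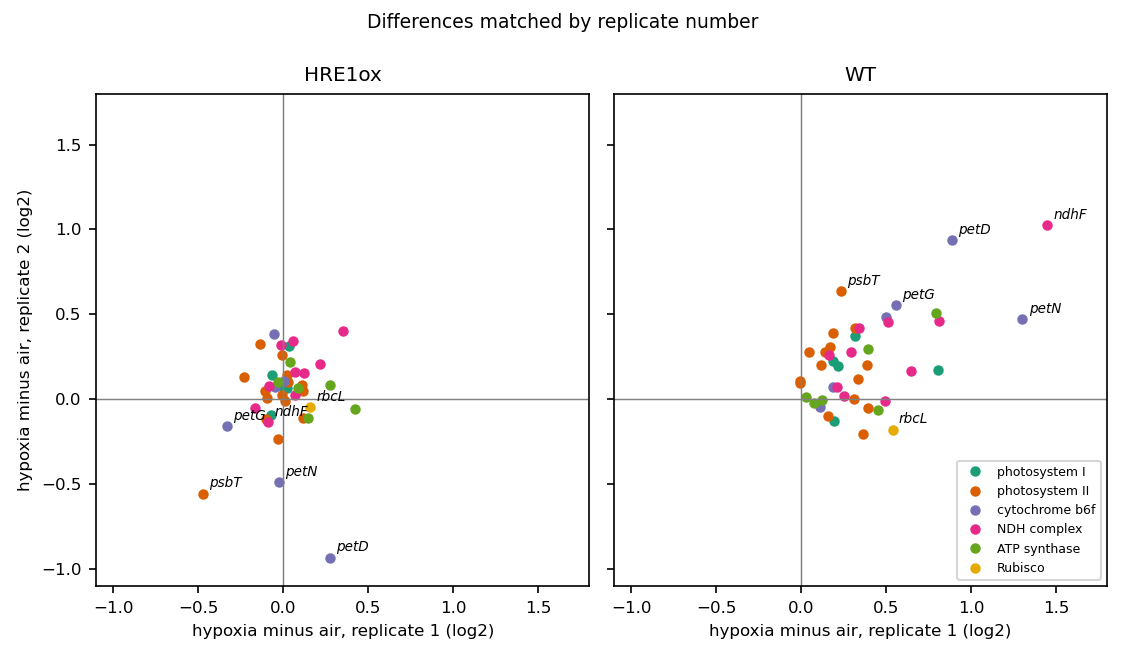
Each point is 1 of the 43 genes, coloured by complex; the x axis is hypoxia minus air in replicate 1 and the y axis the same in replicate 2 (log2), for HRE1ox and WT. In WT 31 points lie above 0 on both axes and 0 below 0 on both, while in HRE1ox 16 lie above 0 on both and 8 below 0 on both.

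In HRE1ox seedlings the same comparison gave 0 of 43 called, where 12.4% of all tested probe sets were, and 0 at an unadjusted p under 0.05 (background 24.3%). The median was 0.04 with 30 above 0, and the range was -0.51 to 0.38. Without HRE1ox air replicate 2 the number above 0 was 19 and the median -0.02, and without HRE1ox air replicate 1 the median was 0.13. Both hypoxia arrays were above both air arrays for 3 genes (ndhJ, ndhK and psbB), and below for 3 (ndhF, petN and psbT). These were 6.98% in each direction, against 23.1% and 24.9% of all tested probe sets. For ndhF the lowest air array, 4.179, was barely above the highest hypoxia array, 4.177, near the filter level, and the difference was -0.11 ± 0.36.

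petN read 8.13 and 7.96 in HRE1ox hypoxia and 8.16 and 8.44 in HRE1ox air, a difference of -0.26 ± 0.26 with arrays that did not overlap. petD read 6.97 and 6.29 in HRE1ox hypoxia and 6.69 and 7.23 in HRE1ox air, with overlapping arrays and a difference of -0.33 ± 0.24. psbT was the lowest, at 9.32 and 9.14 in HRE1ox hypoxia against 9.79 and 9.70 in HRE1ox air, or -0.51 ± 0.31 (adjusted p = 0.3591). ndhH was the highest, at 8.94 and 8.01 in HRE1ox hypoxia against 8.59 and 7.6 in HRE1ox air, or 0.38 ± 0.50. The fit with the replicate block called these last 2 genes, psbT lower and ndhH higher, or 4.65% of the genes where it called 27% of all tested probe sets. In matched pairs 16 of 43 genes (37.2%) were higher in both, against 37.8% of all tested probe sets. Lower in both were 8 of 43, against 5247 of the 13687 tested probe sets.

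In HRE2ox seedlings hypoxia against air gave 0 of 43 called, where 6.96% of all tested probe sets were. The median was -0.05 with 13 above 0, and 1 gene, ndhF, had an unadjusted p under 0.05 (background 18%). Centring each array on its median put 20 above 0. Leaving out HRE2ox air replicate 2 also gave 20, and leaving out HRE2ox hypoxia replicate 1 gave 21. ndhF read 4.37 and 5.78 in HRE2ox hypoxia and 4.12 and 4.31 in HRE2ox air, so the difference of 0.86 ± 0.36 came mainly from replicate 2. It was 1.56 without HRE2ox hypoxia replicate 1 (adjusted p = 0.002591 from limma, range over 13 alternatives 0.002591 to 0.9768) and 0.15 without HRE2ox hypoxia replicate 2, and with a pseudocount of 16 it was 0.57. psaC (0.65) and petN (0.49 ± 0.26) followed, and psbN (-0.67 ± 1.12) and psbA (-0.50 ± 0.42) were the lowest. Arrays that did not overlap were seen upward in 2 genes (ndhF and petN) and downward in 7 (atpA, atpH, ndhG, petB, psbA, psbB and psbC), or 4.65% and 16.3%, against 22.6% and 29% of all tested probe sets. The 3 root markers fell in both lines as well, with medians of -2.56 in HRE1ox and -1.53 in HRE2ox.

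HRE1ox against WT under hypoxia asks whether the transgene changed chloroplast message levels in low oxygen. It shares the WT hypoxia arrays with the WT response, so a high WT hypoxia value enters both. It gave 2 of 43 called (4.65%, against 0.84% of all tested probe sets), both lower and both of the cytochrome b6f complex. At an unadjusted p under 0.05 there were 4, petN, petD, ndhF and petG (9.3%, against 7.93%). petN read 8.13 and 7.96 in HRE1ox hypoxia and 9.89 and 9.14 in WT hypoxia, and fell by 1.47 ± 0.26 on the log2 scale (adjusted p = 0.0413, range over 14 alternatives 0.0128 to 0.4223). petD read 6.97 and 6.29 in HRE1ox hypoxia and 7.98 and 7.90 in WT hypoxia, and fell by 1.31 ± 0.24 (adjusted p = 0.0456, range over 14 alternatives 0.0156 to 0.4481).

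Neither call held without each array in turn. The petN call was lost without HRE1ox hypoxia replicate 1 (-1.56, adjusted p = 0.1348), HRE1ox hypoxia replicate 2 (-1.38, adjusted p = 0.2459) or WT hypoxia replicate 1 (-1.09, adjusted p = 0.2081), each from limma. The petD call was lost without HRE1ox hypoxia replicate 2 (-0.97, adjusted p = 0.2508), WT hypoxia replicate 1 (-1.27, adjusted p = 0.2434) or WT hypoxia replicate 2 (-1.35, adjusted p = 0.2013).

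Over the 43 genes the median of HRE1ox against WT under hypoxia was -0.18, with 38 below 0 and 5 above, while all tested probe sets had a median of -0.01. The number above 0 was 8 without HRE1ox hypoxia replicate 1, 13 without HRE1ox hypoxia replicate 2 and 14 without WT hypoxia replicate 1, and the last gave a median of -0.07. Without HRE1ox hypoxia replicate 2 the median was -0.11. The medians by complex were -0.61 for cytochrome b6f, -0.19 for NDH, -0.17 for ATP synthase and -0.15 for each photosystem. Both HRE1ox arrays read below both WT arrays for 12 genes (27.9%, against 16.1% of all tested probe sets) and above for 0 (against 14.9%). ndhF read 4.09 and 4.18 in HRE1ox hypoxia and 5.55 and 5.25 in WT hypoxia (-1.27 ± 0.36, adjusted p = 0.2318, or -0.82 with a pseudocount of 16). petG read 7.27 and 7.86 in HRE1ox hypoxia and 8.22 and 8.77 in WT hypoxia (-0.93 ± 0.30, adjusted p = 0.3249). petB differed by 0.03 ± 0.11. With the replicate block 7 genes were called, all lower (petD, petG, petN, ndhF, psaA, psbT and atpI), or 16.3% of the genes against 3.43% of all tested probe sets. With the control 5' block 3 were called (petD, petG and petN), or 6.98% against 2.79%. The other 26 chloroplast genes had a median of -0.22, with 25 below 0 and 1 call. The root markers' summed intensity was log2 4.47 to 4.72 on the HRE1ox hypoxia arrays and 4.42 to 4.56 on the WT hypoxia arrays, and their median difference was 0.04 with 0 called.

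HRE2ox against WT under hypoxia gave 0 of 43 called, where 0.0731% of all tested probe sets were, and 2 at an unadjusted p under 0.05 (background 9.05%). These were again petN and petD. petN read 8.59 and 7.99 in HRE2ox hypoxia and 9.89 and 9.14 in WT hypoxia (-1.22 ± 0.26, adjusted p = 0.2038), and petD read 7.09 and 6.88 in HRE2ox hypoxia and 7.98 and 7.90 in WT hypoxia (-0.96 ± 0.24, adjusted p = 0.2473). The WT hypoxia arrays are the same as in the HRE1ox comparison, so the values from the 2 lines are not independent. The other 41 genes did not share that direction as a group: the median over the 43 was 0.03, with 23 above 0 (16 and a median of -0.03 when WT hypoxia replicate 2 was left out, and a median of 0.14 for WT hypoxia replicate 1). psbT was the highest, at 0.49 ± 0.31.

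In air, HRE1ox and WT gave the narrowest range of the comparisons between groups. The test called 0 of 43, where it called 0.00731% of all tested probe sets (0 and 1.35% with the replicate block), and 0 had an unadjusted p under 0.05 (background 9.78%). The median was -0.04, the range -0.34 (psaA) to 0.27 (psbT), and 18 lay above 0. The number above 0 was 31 with a median of 0.05 without HRE1ox air replicate 2, and 23 with a median of 0.01 without the array with the conflicting label. The median was -0.10 without HRE1ox air replicate 1 and 0.02 without WT air replicate 1.

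HRE2ox against WT in air gave 0 of 43 called, where 0.935% of all tested probe sets were, and 13 at an unadjusted p under 0.05, or 30.2% against a background of 15.2%. The median was 0.34 with 35 above 0, while all tested probe sets had a median of 0.01 with 51.8% above 0. Both HRE2ox arrays read above both WT arrays for 25 genes (58.1%, against 24.1% of all tested probe sets) and below for 2 (4.65%, against 22.3%). The 25 were 10 of 15 photosystem II genes, 8 of 10 NDH genes, 3 of 5 photosystem I genes, 2 of 6 ATP synthase genes and 2 of 6 cytochrome b6f genes. Without the array with the conflicting label the median was 0.25, 33 lay above 0 and 0 were called. Without WT air replicate 1 the median was 0.23. The other 26 chloroplast genes had a median of 0.24, and nuclear photosynthesis genes 0.03. The 3 root markers differed by -1.01 to -0.53 with 0 called, and their summed intensity was log2 5.61 to 6.44 on the HRE2ox air arrays against 6.44 to 7.13 on the WT air arrays. Their part in the chloroplast values was not tested.

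psbB came closest to a call, with 11.58 and 11.95 in HRE2ox air against 11.05 and 11.03 in WT air (0.73 ± 0.15, adjusted p = 0.0672, range over 14 alternatives 0.0105 to 0.2784). ndhE read 11.24 and 11.48 in HRE2ox air and 10.68 and 10.93 in WT air (0.55 ± 0.16, adjusted p = 0.1520). psbT read 10.02 and 10.50 in HRE2ox air and 9.54 and 9.40 in WT air (0.79 ± 0.31). The psbB, ndhE and psbT arrays did not overlap between the lines.

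The 2 genes with both HRE2ox arrays below both WT arrays were petN and petD. petN read 7.78 and 7.82 in HRE2ox air and 8.59 and 8.67 in WT air (-0.82 ± 0.26, adjusted p = 0.1847), and petD read 6.91 and 6.67 in HRE2ox air and 7.10 and 6.97 in WT air (-0.24 ± 0.24). A replicate block over all 12 arrays called 0 of 43, where it called 1.06% of all tested probe sets, although the HRE2ox numbers do not pair with those of WT. The block by control 5' signal called 5 genes, all higher (psbB, psbI, psbZ, psaI and ndhA), or 11.6% of the genes against 5.84% of all tested probe sets. It puts all HRE2ox arrays in one block with WT air replicate 2, the array with the conflicting label, and so changes the differences themselves: psbZ was 0.68 in it and 0.39 in the fit without a block, and ndhA 0.80 and 0.62.

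The difference between responses was tested with the interaction of line and oxygen. For HRE1ox against WT, 0 of 43 interactions were called, where 0.0804% of all tested probe sets were, and 3 had an unadjusted p under 0.05 (background 5.57%). petD gave -1.24 ± 0.34 (adjusted p = 0.4082), ndhF -1.35 ± 0.50 (adjusted p = 0.7659) and petN -1.14 ± 0.37 (adjusted p = 0.6155). The median was -0.19 with 8 of 43 above 0, and that number was 19 with a median of -0.08 without WT hypoxia replicate 1, 16 and -0.09 without HRE1ox air replicate 1, and 13 and -0.11 without the array with the conflicting label. It was 13 and -0.11 without HRE1ox hypoxia replicate 2 and 4 without WT hypoxia replicate 2, and the median was -0.31 without HRE1ox air replicate 2. With the replicate block ndhF alone was called (adjusted p = 0.0396, range over 17 alternatives 0.0396 to 0.9997), or 2.33% of the genes against 0.577% of all tested probe sets. Its HRE1ox and WT air means lie near the filter level, and with a pseudocount of 16 its interaction was -0.86.

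For HRE2ox against WT, 0 of 43 interactions were called, where 0.0292% of all tested probe sets were, and 2 had an unadjusted p under 0.05 (background 2.59%). They were ndhK (-0.62 ± 0.22) and psbB (-0.57 ± 0.21). The median was -0.30 with 2 of 43 above 0, while 45.8% of all tested probe sets lay above 0. The number above 0 was 9 without WT hypoxia replicate 1, 9 without the array with the conflicting label and 7 without HRE2ox hypoxia replicate 1. It was 1 without HRE2ox air replicate 1 or WT air replicate 1, and 0 without HRE2ox hypoxia replicate 2. The median was -0.18 when HRE2ox air replicate 2 was left out, -0.19 for HRE2ox hypoxia replicate 1 and -0.17 for WT hypoxia replicate 1. The HRE2ox air and WT air arrays enter both the HRE2ox comparison in air and this one, with opposite sign. All WT arrays enter both interactions, so these medians are not independent of each other.

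Some of these genes differed far more between replicates than between conditions. Over the 4 WT and HRE1ox groups, replicate 1 minus replicate 2 had the same sign in all 4 for 30 of 43 genes (69.8%, against 54.7% of all tested probe sets), 18 with replicate 1 higher and 12 with it lower. atpF, a stalk subunit of the ATP synthase whose gene holds an intron, read 10.82 and 8.54 in HRE1ox hypoxia, 10.68 and 8.65 in HRE1ox air, 11.26 and 9.09 in WT hypoxia and 10.86 and 8.79 in WT air. Replicate 1 was therefore higher by 2.14 on average over these groups.

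rbcL showed a like excess, 2.10 on average. psbN, which lies on the opposite strand within the psbB cluster and codes for an assembly factor of photosystem II in tobacco, went the other way, with 7.28 and 9.74 in HRE1ox hypoxia and 7.54 and 9.93 in WT air, and a mean difference of -2.26. Only these 3 exceeded 1 in the mean over the 4 groups, followed by psaA at 0.98 and ndhH at 0.93.

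The HRE2ox arrays differed from this pattern. atpF replicate 1 minus replicate 2 was -1.93 in HRE2ox hypoxia and -1.28 in HRE2ox air, rbcL gave -1.66 and 0.59, and psbN gave 1.58 and 0.26. Within WT and HRE1ox, the split follows the control 5' signal given above: the bacterial control dap 5' read 9.26 to 9.57 on the replicate 1 arrays and 5.56 to 7.02 on the other 8, and the GAPDH 3' minus 5' difference was 1.88 to 2.20 on those 4 arrays and 2.41 to 2.94 on the other 8. What part either has in the values of atpF, rbcL or psbN was not tested. The SE of a difference between 2 groups was 1.07 to 1.13 for these 3 genes, and 0 of them were called in any comparison.

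**Figure D5:**
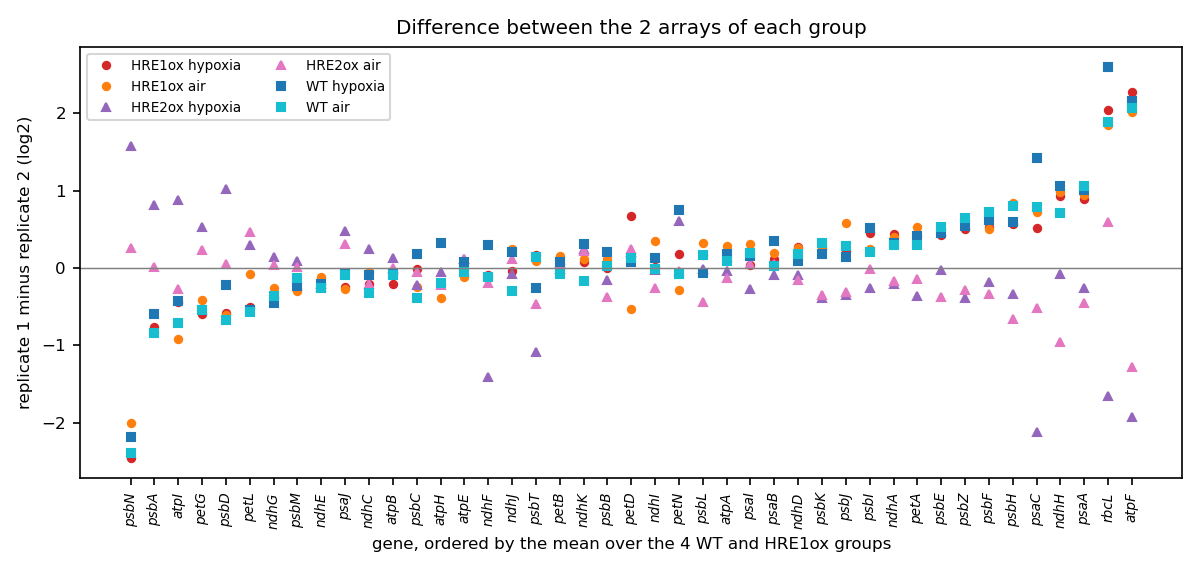
For each of the 43 genes (x axis, ordered by the mean over the 4 WT and HRE1ox groups), points give replicate 1 minus replicate 2 (log2, y axis) in each of the 6 groups. The WT and HRE1ox points lie together from -2.26 on average at psbN to 2.14 at atpF, and the HRE2ox points lie on the other side of 0 for 36 genes in hypoxia and 30 in air.

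The size of the WT response also varied with the brightness of the probe set. Over the 43 genes the difference between WT hypoxia and WT air had a Pearson r of -0.79 and a Spearman rho of -0.77 with the mean log2 value over 12 arrays, across genes that share the same arrays. The 15 genes with a mean under log2 10 had a median difference of 0.49, and the other 28 had 0.16. For HRE1ox against WT under hypoxia, which shares the WT hypoxia arrays, r was 0.77, with medians of -0.46 and -0.13 in the same sets of 15 and 28. For hypoxia against air in HRE1ox r was 0.17. What part brightness has in the order of the genes and complexes was not tested.

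Genes of one transcribed cluster can be set side by side, and differences within a cluster were not tested. In the cluster psbB-psbT-psbH-petB-petD the WT response ran from 0.03 at petB to 0.91 at petD, with a median of 0.30. In the NDH cluster of the small single-copy region, from ndhH to ndhD and including psaC, all 7 genes lay between 0.14 and 0.64, with a median of 0.38. The petL-petG-psaJ cluster gave 0.49, 0.55 and 0.21, and psbE-psbF-psbL-psbJ gave 0.05 to 0.21. Each value is from 1 probe set, and which part of a transcript each probe set reads is not given in the sources used here.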

How the data were processed

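Total RNA from whole seedlings was hybridized to 12 arrays, 2 for each of 6 groups. The deposited values are intensities on a linear scale, and GCRMA, per the submitters' processing notes, made them; the sources used here give neither its version nor its settings. They were taken as log2(intensity + 1). Of 22810 probe sets, 64 controls were left out, and 13687 were tested, each with 2 or more arrays at log2 4 (intensity 15) or above; 9059 were not.

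Genes were named from the platform annotation, joined to RefSeq by gene identifier (13436 of 13513 single-gene probe sets matched); the mitochondrial genes were matched by symbol. The 43 genes and the gene lists were chosen with earlier results of these data known. Per comparison, the called genes or otherwise the highest and lowest were to be named; several more are named here after their values were seen. Plastid transcription regulators had 0 tested probe sets. The 5 tested probe sets of mitochondrion-encoded genes had a median difference between WT hypoxia and WT air of 0.58, with 4 above 0 and 0 called. The same median was 0.56 in HRE1ox, with 5 above 0, and 0.11 in HRE2ox, with 4 above 0. Their values lay near the filter level.

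limma 3.58.1 in R 4.3.3 fitted the 6 groups over 12 arrays (lmFit and eBayes without trend, 6 residual and 3.25 prior degrees of freedom), with two-sided p-values adjusted by Benjamini and Hochberg over 13687 probe sets. The fit was tested on simulated data. The labels give replicate numbers without saying what they share. Replicate 1 minus replicate 2 correlated at 0.67 to 0.75 over the tested probe sets among the 4 WT and HRE1ox groups, and at -0.58 to -0.24 between these and the HRE2ox groups, so the number was taken to pair arrays in WT and HRE1ox only, and the fit with it as a block holds those 8 arrays unless all 12 are named (3 residual and 4.09 prior degrees of freedom). The block leaves the differences as they are and changes only the spread. Alternatives are listed in the closing section. Counts of genes above 0 were added as a measure after the data were seen.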

Additional observations from a re-analysis of the deposited data

Results flagged for a closer look

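In 4 genes both hypoxia arrays lay on one side of both air arrays in a transgenic line and on the other side in WT. They are 3 of 43 for HRE1ox (6.98%, against 2.08% of all tested probe sets) and 1 of 43 for HRE2ox (2.33%, against 1.7%). The value given is the difference between the 2 responses, line minus WT, and limma's interaction test called 0 of them. For HRE1ox, where hypoxia read lower and WT higher, it was -1.14 ± 0.37 for petN (adjusted p = 0.6155), -0.95 ± 0.43 for psbT (adjusted p = 0.9140) and -1.35 ± 0.50 for ndhF (adjusted p = 0.7659). For HRE2ox it was -0.57 ± 0.21 for psbB (adjusted p = 0.9997). Within HRE1ox alone, hypoxia minus air was -0.26 ± 0.26 for petN, -0.51 ± 0.31 for psbT and -0.11 ± 0.36 for ndhF. The ndhF arrays of HRE1ox were barely apart and near the filter level, with the highest hypoxia array at 4.177 and the lowest air array at 4.179. The petN arrays of HRE1ox were also close, at 8.13 for the highest hypoxia array and 8.16 for the lowest air array. So were the psbB arrays of HRE2ox, at 11.57 and 11.58.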

How the results depend on the processing

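Each count of called genes and each median was recomputed with a replicate block, a block by control 5' signal, the arrays of the comparison alone, centred arrays, other filters, a pseudocount of 16, trend and robust variances, 1 probe set per gene, and without each array in turn. Of the recomputed counts of called genes, 114 were equal or close to the main count, with 3 against 2 taken as close, 14 were higher and 6 lower. Of the medians, 130 moved by less than the spread of the genes' per-array medians and 4 by more. Many of the 130 could not move. The replicate blocks, the arrays of the comparison alone, no filter, 1 probe set per gene and changed variances leave each difference as it is. The control 5' block does so too, except where HRE2ox is compared directly with WT. The 134 medians are therefore not 134 separate checks of stability. Of these 134 medians 5 changed sign, all without 1 array and in 3 comparisons whose main median was within 0.0448 of 0 (HRE1ox hypoxia against air, HRE1ox against WT in air and HRE2ox against WT under hypoxia). Counts of called genes have beside them, in brackets, the share of all tested probe sets called. The main counts were 0 in every comparison except HRE1ox against WT under hypoxia, with 2. In WT hypoxia against air they were 9 with the replicate block in the 8 WT and HRE1ox arrays (16.1%) and 5 with the control 5' block (13.6%). They were 1 each with the block over 12 arrays (7.72%), a pseudocount of 16 (6.68%) and the arrays of the comparison alone (2.67%). Without 1 array the median was 0.14 to 0.33. In HRE1ox hypoxia against air the replicate block gave 2 (27%). In HRE2ox hypoxia against air the median without 1 array was -0.0976 to -0.0307. In HRE2ox against WT in air the control 5' block gave 5 (5.84%), a pseudocount of 16 gave 1 (1.03%), and trend and robust variances gave 1 (1.18%). Crossing the HRE2ox replicate numbers in the block over 12 arrays, tried because they ran against those of WT, gave 5 there (8.04%). In HRE1ox against WT under hypoxia the replicate block gave 7 (3.43%) and the control 5' block 3 (2.79%). The arrays of the comparison alone (0%) and no filter (0.624%) gave 0 each. Without 1 array the median was -0.26 to -0.0662, and what became of the 2 calls is given above. The interaction of HRE1ox and hypoxia gave 1 with the replicate block (0.577%), and its median without 1 array was -0.31 to -0.0766. The causes were not tested. A fit without 1 array takes the lone array left in a group to vary like the other groups, and where WT or HRE1ox is compared it sets unequal replicate numbers against each other. Of values for single genes, 400 kept their call, 26 gained one and 10 lost one.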
